A study of Mus musculus with 6 samples.

Results

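A set of 10 cardiac transcription factors was followed in hypoxic heart cells given an adenovirus for ABHD11. All 10 (Gata4, Gata6, Nkx2-5, Tbx5, Tbx20, Mef2a, Mef2c, Mef2d, Hand2 and Srf) were picked by gene symbol, and all 10 were found among the 21741 symbols of the count tables. RNA was sequenced in 6 libraries of primary cardiomyocytes from the mouse, which are muscle cells taken from heart tissue and kept in culture. Of these, 3 were libraries of cells that received Adv-ABHD11, with a genotype labelled as ABHD11 overexpression. The other group was 3 libraries of cells that received the control virus Adv-NC, labelled as wild type. All 6 were kept in hypoxia for 24 h and carried the same batch number. The labels used here do not state the animals' age, strain or sex, nor whether replicates came from separate cultures. The p-values therefore cover the spread among these libraries alone, and part of that spread may be technical.

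The heart is built and maintained by a small set of DNA-binding proteins that act together on the same genes. GATA4 and GATA6 are zinc-finger proteins, NKX2-5 is a homeodomain protein, TBX5 and TBX20 carry a T-box, and HAND2 is a basic helix-loop-helix protein. The MEF2 proteins and SRF share the MADS domain: MEF2 binds AT-rich sites and is held back by class IIa histone deacetylases, while SRF binds the CArG box and takes its direction from partner proteins, either the myocardin family, which drives muscle genes, or the ternary complex factors (TCF), which drive immediate early genes.

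The libraries held 16292756 to 20338700 counts, so that a single count was worth 0.0492 to 0.0614 CPM, the unit of counts scaled to library size. The lowest count of any of the 10 factors in any library was 327. Abhd11 itself had 38.0, 42.5 and 36.2 CPM in the Adv-ABHD11 libraries, against 31.5, 35.2 and 33.9 CPM in the Adv-NC libraries. The groups did not overlap, but the log2 fold change of 0.21, with a standard error (SE) of 0.101, did not pass (edgeR adjusted p = 0.0765), so this gene's row gave no clear check of the labels. The label of cardiomyocyte was checked on 10 contractile and calcium-handling markers, whose summed level was 38180 to 40950 CPM in the Adv-ABHD11 libraries and 20710 to 22370 CPM in the Adv-NC libraries. Markers of other heart cells were abundant too, so this check says nothing of purity. Fibroblast markers summed to 11030 to 14810 CPM with Adv-ABHD11 and to 13920 to 17170 CPM with Adv-NC. Smooth muscle and pericyte markers summed to 4594 to 5050 CPM with Adv-ABHD11 and to 3381 to 3888 CPM with Adv-NC. The groups also differed in further markers. A list of 10 lung epithelial markers summed to 138.7 to 150.4 CPM with Adv-ABHD11 and to 0.162 to 0.667 CPM with Adv-NC, where 7 of the 10 had no count, and endothelial markers summed to 676 to 738 CPM with Adv-ABHD11 and to 441 to 485 CPM with Adv-NC. The 4 red blood cell markers tested summed to 22.5 to 25.9 CPM with Adv-ABHD11 and to 0.313 to 0.648 CPM with Adv-NC. Their part in the results was not tested. Every comparison below is therefore one between the labelled groups, in which the labelled agent and these differences in marker content cannot be told apart. In bulk libraries of this kind, fewer cells of a type and less RNA per cell cannot be told apart.

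Of the 10 factors, 4 were higher with Adv-ABHD11 (Mef2c, Hand2, Nkx2-5 and Tbx20), 4 were lower (Srf, Mef2d, Gata6 and Gata4) and 2 (Tbx5 and Mef2a) did not pass an adjusted p of 0.05 in edgeR's quasi-likelihood test. The share that passed, 80.0%, has to be read against the 59.3% of all 12790 tested genes that passed in the same test, with 29.9% higher and 29.5% lower. The background was thus divided about evenly between the directions, as the factors were. The libraries of the groups did not overlap in CPM for 7 of the 10 factors, against 63.2% of all tested genes. The log2 fold changes ran from -0.63 to 0.95 with a median of 0.224, against a median of 0.0164 over all tested genes. These medians keep the sign. Regardless of sign, the median size over all tested genes was 0.429. Mef2c, Srf, Hand2 and Mef2d changed by more than that, and the other factors by less. The summed level of the 10 factors was 1071, 912 and 1023 CPM in the Adv-ABHD11 libraries and 1137, 1044 and 1106 CPM in the Adv-NC libraries, so these sums overlapped between the groups.

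**Figure D1:**
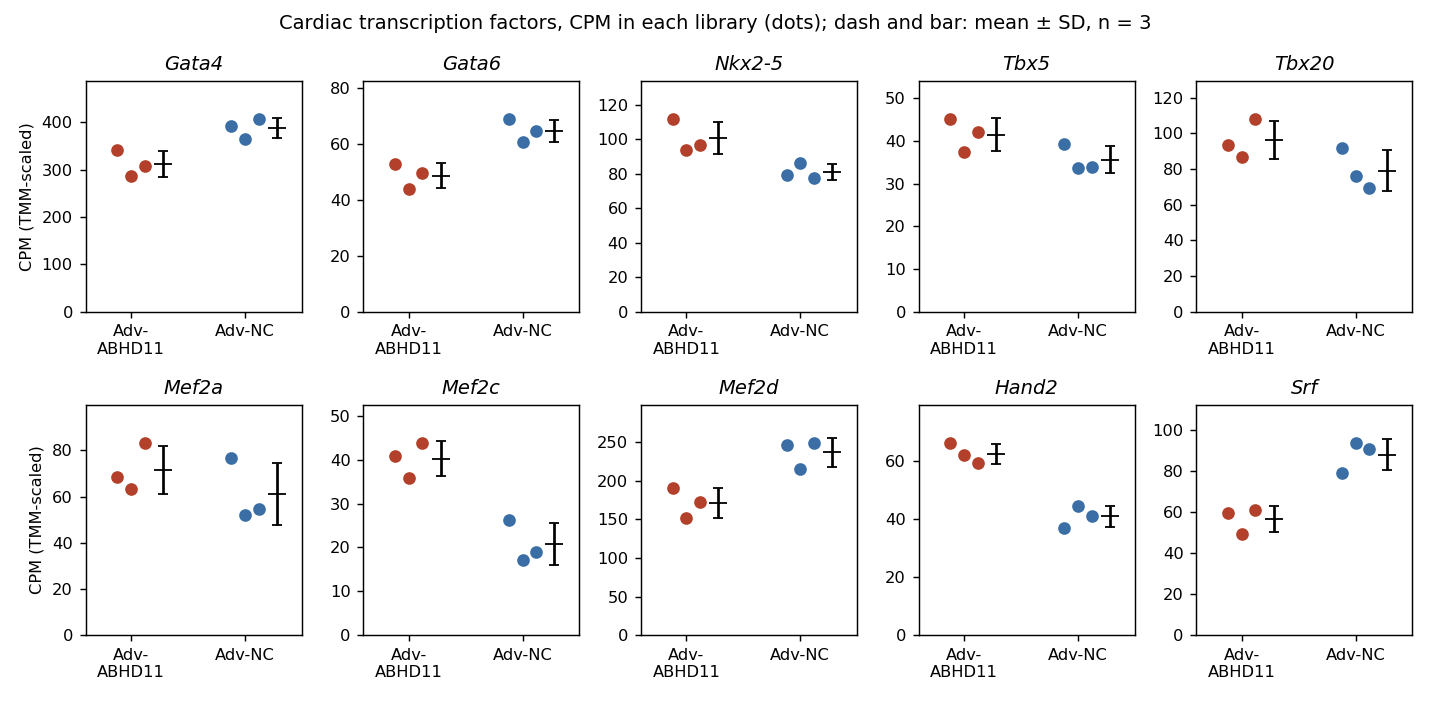
CPM of each factor in each library (dots; y axes start at 0) with the group mean ± SD (n = 3), Adv-ABHD11 left of Adv-NC. Mef2c, Hand2 and Nkx2-5 lie above all Adv-NC libraries in each Adv-ABHD11 library, Srf, Mef2d, Gata6 and Gata4 lie below, and Tbx5, Tbx20 and Mef2a overlap.

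SRF, the MADS-box factor that binds CArG boxes, had the lowest fold change of the 10. Srf stood at 59.8, 49.2 and 61.0 CPM in the Adv-ABHD11 libraries, against 79.3, 93.6 and 91.0 CPM in the Adv-NC libraries. Every Adv-ABHD11 library was below every Adv-NC library. Srf averaged 56.7 ± 6.53 CPM with Adv-ABHD11 and 88.0 ± 7.61 CPM with Adv-NC (SD, n = 3 each), which is 1.55-fold lower, or -0.63 ± 0.102 on the log2 scale (SE; adjusted p = 3.65e-05 in edgeR). The gene spans chr17:46548329-46556175 on the minus strand (GRCm38, GENCODE M21).

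The promoter of Srf is shown because its own product binds this kind of element. The 250 bases before the annotated start (chr17:46556163-46556412, minus strand, GRCm38.p6, RefSeq) hold a pair of CArG boxes, in capitals. A CArG box was searched on both strands and occurred in 1.47% of 32851 promoter windows of the same length. Srf was the single factor with such a box among the 7 of the 10 factors whose windows were matched.
Srf: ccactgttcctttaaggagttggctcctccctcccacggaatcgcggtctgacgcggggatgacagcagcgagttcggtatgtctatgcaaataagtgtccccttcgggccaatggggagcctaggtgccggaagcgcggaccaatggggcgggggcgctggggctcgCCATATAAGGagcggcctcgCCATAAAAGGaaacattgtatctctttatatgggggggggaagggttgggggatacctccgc

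Beside it stands the window of Hand2 (chr8:57320733-57320982, plus strand, same build and source), a factor that rose. Its capitals mark GATAA, the core that GATA proteins bind, found on either strand in 22.6% of windows. Of the 7 factors with a matched window, 2 held it, Hand2 and Mef2c, so it is not particular to Hand2.
Hand2: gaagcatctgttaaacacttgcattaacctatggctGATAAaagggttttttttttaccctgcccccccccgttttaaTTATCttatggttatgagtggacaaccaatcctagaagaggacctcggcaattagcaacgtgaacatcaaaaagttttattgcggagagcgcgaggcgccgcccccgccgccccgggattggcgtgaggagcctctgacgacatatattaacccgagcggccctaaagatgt

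Among the genes of the pathway lists, 15 tested ones held a CArG box in a 250-base window, Srf included. Of these, 11 rose, 3 fell (Srf, Actg1 and Egr2) and Vcl did not pass. Not every listed gene had a window: 32 of 35 heart muscle targets did, and 7 of 10 immediate early targets of SRF. Boxes farther than 250 bases from the start were not searched. The lists had a lean of their own, as 30 of the 35 heart muscle targets were higher, with or without a box. The following stretches show that boxes of like letters stood before genes that fell and genes that rose. They were chosen after their values were seen, and capitals mark the box, with its first base counted from the start site (-1 is the last base before it).
Srf, box at -82 (chr17:46556223-46556256, minus strand): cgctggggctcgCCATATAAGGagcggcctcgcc
Srf, box at -62 (chr17:46556203-46556236, minus strand): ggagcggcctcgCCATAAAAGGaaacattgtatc
Actg1, box at -90 (chr11:120348564-120348597, minus strand): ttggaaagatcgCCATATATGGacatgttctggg
Egr2, box at -73 (chr10:67537785-67537818, plus strand): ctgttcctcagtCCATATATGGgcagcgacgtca
Acta1, box at -73 (chr8:123894827-123894860, minus strand): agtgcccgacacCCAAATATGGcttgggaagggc
Actc1, box at -47 (chr2:114052901-114052934, minus strand): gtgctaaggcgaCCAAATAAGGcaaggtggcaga
Fhl2, box at -31 (chr1:43163971-43164004, minus strand): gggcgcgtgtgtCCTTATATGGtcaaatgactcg
Fhl1, box at -102 (chrX:56779569-56779602, plus strand): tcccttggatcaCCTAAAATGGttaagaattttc
Vcl, box at -227 (chr14:20929159-20929192, plus strand): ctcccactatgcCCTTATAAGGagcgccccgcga

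The boxes of Actg1 and Egr2 shown here, before genes that fell, had the same letters, CCATATATGG. Identical letters also stood before genes of opposite direction. The box of Srf at -62, CCATAAAAGG, was found before Myom1 too, which rose (log2 fold change 1.28, edgeR adjusted p = 6.44e-09). Acta1 (skeletal alpha-actin) and Actc1 (cardiac alpha-actin) rose by log2 fold changes of 3.34 ± 0.165 and 1.12 ± 0.102 (SE), while Actg1 (cytoplasmic gamma-actin) was at -0.94 ± 0.108 (SE, edgeR adjusted p = 1.29e-11, 4.3e-08 and 7.69e-07). Over all tested genes with a CArG box in a window, 57 of 149 were higher and 51 were lower, or 38.3% and 34.2%, against 29.7% and 29.5% of the 10096 tested genes with a window. A match is a description of these letters and not of binding.

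The MEF2 paralogs moved apart. Mef2c, the form needed for early heart development and also present in endothelial cells, had 40.9, 35.9 and 43.7 CPM in the Adv-ABHD11 libraries, against 26.3, 17.05 and 19.0 CPM in the Adv-NC libraries. All Adv-ABHD11 libraries were above all Adv-NC libraries, and replicate 1 was the highest of the Adv-NC libraries. Its means were 40.2 ± 3.97 CPM with Adv-ABHD11 and 20.8 ± 4.86 CPM with Adv-NC (SD, n = 3 each), 1.93-fold higher, or 0.95 ± 0.137 on the log2 scale (SE; adjusted p = 1.13e-05 in edgeR). That change was larger in size than those of 82.5% of all tested genes. Of 10 endothelial markers 9 also rose and 0 fell (median log2 fold change 0.769), and their part in the Mef2c value was not tested. The gene spans chr13:83504034-83667080 on the plus strand (GRCm38, GENCODE M21).

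Mef2d, a MEF2 form found in many tissues, fell. It stood at 190.2, 151.7 and 172.5 CPM in the Adv-ABHD11 libraries, against 246.7, 214.9 and 248.6 CPM in the Adv-NC libraries, again with no overlap. This was 1.38-fold lower (log2 fold change -0.47 ± 0.0977, SE; edgeR adjusted p = 0.000519). Mef2a, another form present in heart muscle, had 68.4, 63.3 and 83.1 CPM with Adv-ABHD11 and 76.7, 52.2 and 54.7 CPM with Adv-NC. These libraries overlapped, and the log2 fold change of 0.23 ± 0.131 did not pass (SE, edgeR adjusted p = 0.145, 95% interval -0.048 to 0.504). Its value turned to -0.099 with the GC and length trend removed (edgeR adjusted p = 0.28), and was 0.44 when Adv-NC replicate 1 was left out (0.00325) but 0.099 when Adv-ABHD11 replicate 3 was (0.604). Lysmd4 overlaps Mef2a on the other strand and averaged 24.8 ± 1.498 CPM with Adv-ABHD11 and 12.8 ± 0.714 CPM with Adv-NC (SD, n = 3 each); the counting is not stated to use strand, so reads of the overlap cannot be told apart.

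Within each library, the make-up of the MEF2 counts shifted, a measure that does not depend on how libraries are scaled. These shares, and the ratios below, were not corrected for trends with GC content and exonic length. With that correction the log2 fold changes were 0.605 for Mef2c, -0.325 for Mef2d and -0.099 for Mef2a. Without it they were 0.95, -0.47 and 0.23. Mef2d made up 63.5%, 60.5% and 57.6% of the counts of Mef2a, Mef2c and Mef2d in the Adv-ABHD11 libraries, against 70.6%, 75.6% and 77.1% in the Adv-NC libraries. The share of Mef2c was 14.2 ± 0.488% with Adv-ABHD11 and 6.47 ± 0.903% with Adv-NC (SD, n = 3 each). Mef2d stayed the most counted of the 3 forms in every library.

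The ratio of Mef2c to Mef2a counts was 0.598, 0.567 and 0.526 in the Adv-ABHD11 libraries, against 0.343, 0.327 and 0.348 in the Adv-NC libraries, 1.66 times as high. The ratio of Mef2d to Mef2a counts was 2.78, 2.40 and 2.08 with Adv-ABHD11 and 3.22, 4.12 and 4.54 with Adv-NC, 1.63-fold lower. Both ratios separated the groups without overlap. Both reached p = 0.1 in a two-sided exact permutation test, the smallest p that 3 against 3 libraries allow, and 0.2 when adjusted over the 4 ratios compared.

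**Figure D2:**
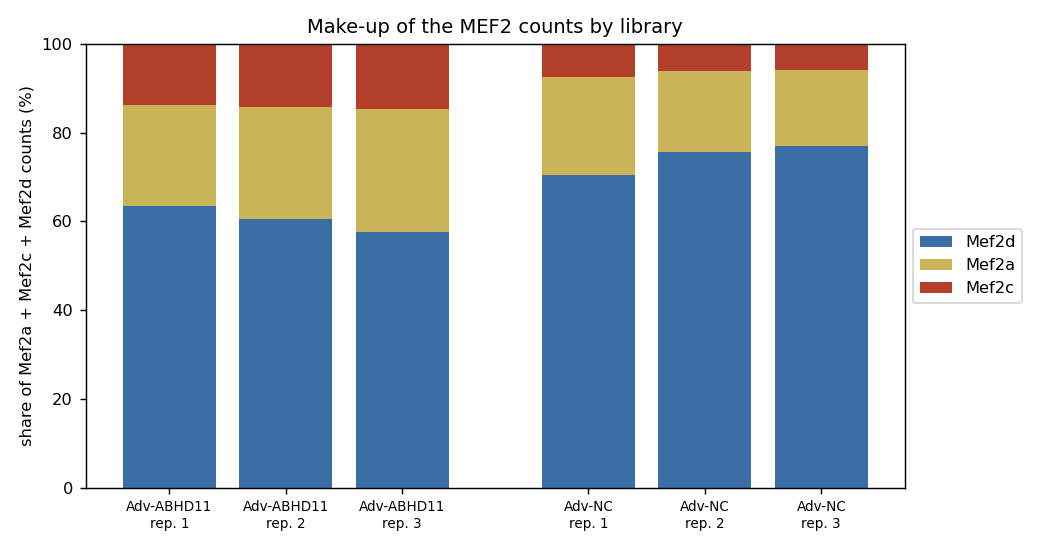
Share of Mef2d, Mef2a and Mef2c in their summed counts (%, y axis from 0 to 100) in each library, Adv-ABHD11 at left and Adv-NC at right. The Mef2c part takes 13.7% to 14.6% of each Adv-ABHD11 library and 5.91% to 7.52% of each Adv-NC library.

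Both GATA factors were lower, to a like degree. Gata4, a central activator of heart muscle genes that cardiac fibroblasts also express, had 342, 287 and 307 CPM in the Adv-ABHD11 libraries, against 392, 365 and 406 CPM in the Adv-NC libraries. The groups did not overlap, and the log2 fold change was -0.31 ± 0.0917 (SE; adjusted p = 0.0072 in edgeR). Gata6, which is also made in smooth muscle, epicardium and lung epithelium, had 52.9, 43.8 and 49.7 CPM with Adv-ABHD11 and 68.9, 60.9 and 64.8 CPM with Adv-NC, or -0.41 ± 0.0967 on the log2 scale (SE; adjusted p = 0.00139 in edgeR). Lung epithelial markers were higher in the libraries in which Gata6 was lower, and the part of such cells in its value was not tested.

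The ratio of Gata6 to Gata4 counts was 0.154, 0.152 and 0.162 in the Adv-ABHD11 libraries and 0.176, 0.167 and 0.160 in the Adv-NC libraries. These values overlapped and the difference in log2 ratio of -0.099 did not pass (two-sided exact permutation p = 0.2, adjusted p = 0.267). Gata4 was at -0.16 on the log2 scale (adjusted p = 0.0587 in edgeR) once trends with GC content and exonic length were taken out of every library. With upper-quartile scaling, which raised the median over all tested genes by 0.108, it was at -0.20 (adjusted p = 0.0563 in edgeR), so relative to that median its value was about as before. Gata6 passed under all 14 alternatives. Epicardial and fibroblast markers, cells in which both genes are also active, were lower as well: 7 of 10 epicardial markers fell and 1 rose (median log2 fold change -0.594), and 6 of 10 fibroblast markers fell and 2 rose (median -0.302). The part of these cells in the GATA values was not tested.

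NKX2-5, the homeodomain factor that marks heart muscle cells, was modestly higher. Nkx2-5 had 111.6, 93.9 and 96.9 CPM in the Adv-ABHD11 libraries, against 79.4, 86.1 and 77.7 CPM in the Adv-NC libraries, or 0.31 ± 0.0921 on the log2 scale (SE; adjusted p = 0.00706 in edgeR). The groups did not overlap, although Adv-ABHD11 replicate 2 and Adv-NC replicate 2 came close. Without Adv-ABHD11 replicate 1, the highest library, the adjusted p in edgeR was 0.0518.

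HAND2, known for its role in the right ventricle and in outflow tract and epicardial cells, rose more. Hand2 had 66.1, 62.2 and 59.3 CPM in the Adv-ABHD11 libraries, against 37.1, 44.5 and 41.2 CPM in the Adv-NC libraries. The groups were clearly apart and the log2 fold change was 0.61 ± 0.0967 (SE; adjusted p = 3.29e-05 in edgeR), 1.53-fold higher. Its relative Hand1, a left ventricular factor named after its values were seen, was also higher at a low level, 4.90 ± 0.729 CPM with Adv-ABHD11 and 1.56 ± 0.219 CPM with Adv-NC (SD, n = 3 each, edgeR adjusted p = 9.23e-06). The antisense partner Hand2os1 overlaps Hand2 and was not analysed here. Genes on the other strand also overlap Gata6 (1010001N08Rik), Mef2d (1700113A16Rik) and Srf (Gm26904), and none of them was among the counted symbols. As for Mef2a, reads of these overlaps cannot be told apart.

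The T-box factors moved little. TBX5, mutated in Holt-Oram syndrome in people, had 45.1, 37.5 and 42.1 CPM with Adv-ABHD11 and 39.4, 33.7 and 33.98 CPM with Adv-NC. The libraries overlapped, and the log2 fold change of 0.22 ± 0.104 (SE; adjusted p = 0.0790 in edgeR) missed the threshold, with a 95% interval of 0.00022 to 0.439. Tbx20, needed for the upkeep of adult heart muscle, had 93.3, 86.9 and 107.7 CPM with Adv-ABHD11 and 91.9, 75.9 and 69.4 CPM with Adv-NC. Its log2 fold change of 0.28 ± 0.109 passed (SE, edgeR adjusted p = 0.0344) although the libraries overlapped. That call did not hold in edgeR without Adv-ABHD11 replicate 1 (adjusted p = 0.0518), Adv-ABHD11 replicate 3 (0.233), Adv-NC replicate 2 (0.136) or Adv-NC replicate 3 (0.195), and with the GC and length trend removed its log2 fold change was 0.057 (adjusted p = 0.51). The ratio of Tbx20 to Tbx5 counts overlapped between the groups (difference in log2 ratio 0.063, two-sided exact permutation p = 0.5, adjusted p = 0.5).

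**Figure D3:**
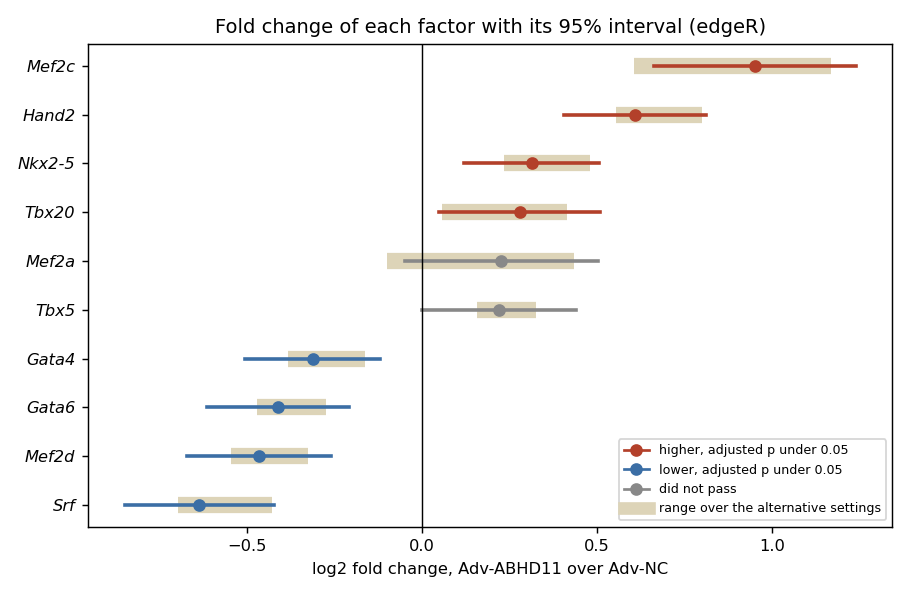
Log2 fold change of each factor (dot) with its 95% interval from edgeR (line) and the range of its estimate over 14 alternative settings (broad band). Mef2c, Hand2, Gata6, Mef2d and Srf keep their side of 0 and their call throughout, and the band of Mef2a crosses 0.

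The order of the levels was compared per length of transcript, in TPM, the unit of counts scaled to length and library size, over the union of each gene's exons. Gata4 ranked first in both groups, at 218.6 ± 33.7 TPM with Adv-ABHD11 and 277.6 ± 21.7 TPM with Adv-NC (SD, n = 3 each), followed by Nkx2-5 at 160.3 ± 24.5 TPM with Adv-ABHD11 and 131.9 ± 7.98 TPM with Adv-NC. The gap between these 2 was clear of the spread with Adv-NC, whereas with Adv-ABHD11 the lowest Gata4 library, at 182.7 TPM, was below the highest Nkx2-5 library, at 184.8 TPM. Mef2d came next, at 78.5 ± 14.1 TPM with Adv-ABHD11 and 110.8 ± 12.3 TPM with Adv-NC.

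Hand2 and Srf changed places. Hand2 averaged 72.5 ± 7.23 TPM with Adv-ABHD11, where it ranked above Srf, and 48.6 ± 2.54 TPM with Adv-NC, where it ranked below. Srf averaged 53.7 ± 9.98 TPM with Adv-ABHD11 and 84.8 ± 3.43 TPM with Adv-NC. In neither group did the libraries of these 2 genes overlap. Gata6, Tbx5 and Tbx20 followed at 18.5 to 27.9 TPM, then Mef2a at 13.4 ± 2.71 TPM with Adv-ABHD11 and 11.7 ± 3.22 TPM with Adv-NC. Mef2c was last, at 6.997 ± 1.18 TPM with Adv-ABHD11 and 3.73 ± 1.07 TPM with Adv-NC. Of the 9 neighbouring pairs in the order, 4 overlapped between libraries with Adv-ABHD11 and 1, Tbx5 with Tbx20, overlapped with Adv-NC. With the longest coding transcript as the length, the first 5 with Adv-ABHD11 and the first 4 with Adv-NC held their places, and Mef2c was last in both groups.

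Set against heart muscle transcripts, most factors were lower, as were most genes. The counts of each factor were divided by the summed counts of the 10 cardiomyocyte markers in the same library. Gata4 had 8.36, 7.31 and 8.04 counts per 1000 marker counts in the Adv-ABHD11 libraries, against 17.5, 17.3 and 19.6 in the Adv-NC libraries, 2.29-fold lower. Srf had 1.46, 1.25 and 1.60 counts per 1000 with Adv-ABHD11 and 3.54, 4.43 and 4.39 with Adv-NC, 2.87-fold lower. In all, 9 of the 10 factors were lower by this measure with no overlap between the groups, against 76.3% of all tested genes (4.81% were higher with no overlap), so the count is near the background and is not particular to the factors. The exception was Mef2c, with 0.999, 0.913 and 1.15 counts per 1000 with Adv-ABHD11 and 1.175, 0.807 and 0.919 with Adv-NC.

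The smallest of the 9 differences was that of Hand2, with 1.62, 1.58 and 1.55 counts per 1000 with Adv-ABHD11 and 1.66, 2.11 and 1.99 with Adv-NC. Each of the 9 reached p = 0.1 in the two-sided exact permutation test, the smallest possible, and 0.111 adjusted over the 10 factors, and Mef2c had p = 0.8 in the same exact test. These ratios also carry the rise of the markers themselves, of which 9 of 10 rose and 0 fell (median log2 fold change 0.977).

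**Figure D4:**
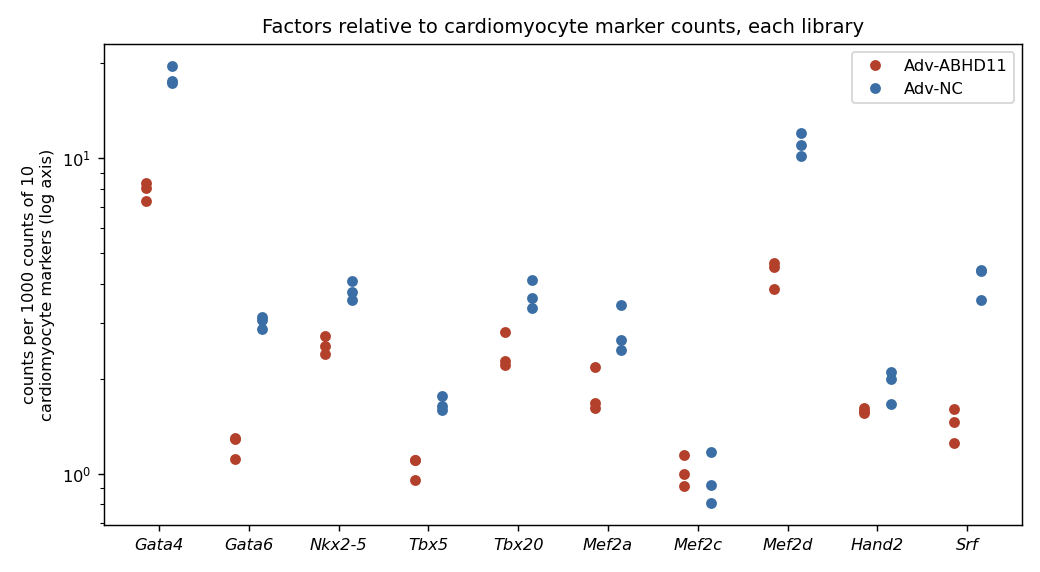
Counts of each factor per 1000 summed counts of 10 cardiomyocyte markers (log axis) in each library, Adv-ABHD11 left of Adv-NC for each factor. The groups are apart for 9 factors and overlap for Mef2c.

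Of 28 other transcription factors of the heart, 24 were tested and 4 had too few counts. Among those tested, 12 rose and 6 fell, for a median log2 fold change of 0.42, and 75.0% passed, against 59.3% of all tested genes. Nfatc1, a calcineurin-dependent factor of the endocardium, had 24.8, 18.1 and 23.8 CPM with Adv-ABHD11 and 98.4, 83.5 and 105.4 CPM with Adv-NC (log2 fold change -2.11, edgeR adjusted p = 8.985e-11). Irx4, a ventricular homeobox factor, had 46.5, 41.0 and 40.7 CPM with Adv-ABHD11 and 22.2, 19.5 and 18.6 CPM with Adv-NC (log2 fold change 1.09, edgeR adjusted p = 1.21e-07). Nr2f2, a nuclear receptor of atrial and venous cells, rose by 1.28 on the log2 scale (edgeR adjusted p = 5.54e-06).

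Of 24 cofactors and repressors of the factors, 8 rose and 7 fell, for a median log2 fold change of 0.0716. The 62.5% that passed was close to the 59.3% of all tested genes. Myocd, the muscle-restricted coactivator myocardin that binds SRF, had 55.7, 46.9 and 52.4 CPM with Adv-ABHD11 and 13.3, 13.1 and 14.3 CPM with Adv-NC. That is 1.93 ± 0.107 on the log2 scale (SE; adjusted p = 5.99e-11 in edgeR), in libraries in which Srf was lower. Mrtfa, the actin-regulated coactivator of the same family and named here after its values were seen, moved the other way, at 24.5 ± 4.32 CPM with Adv-ABHD11 and 47.2 ± 5.12 CPM with Adv-NC (SD, n = 3 each, edgeR adjusted p = 3.62e-06).

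Hdac9, a class IIa deacetylase that represses MEF2 and is itself a MEF2 target, had 10.2, 11.6 and 11.9 CPM with Adv-ABHD11 and 2.91, 1.67 and 1.85 CPM with Adv-NC (log2 fold change 2.39, edgeR adjusted p = 1.64e-08). The other listed genes of this class, named after their values were seen, did not rise. Hdac4 and Hdac5 were lower, at log2 fold changes of -0.51 and -0.27 (edgeR adjusted p = 0.00473 and 0.0112). Hdac7 was at -0.20 and did not pass (edgeR adjusted p = 0.101). The SRF partner Fhl2 rose to 1021 ± 57.7 CPM with Adv-ABHD11, against 417 ± 25.5 CPM with Adv-NC, and the stretch-responsive Ankrd1 rose to 1792 ± 67.1 CPM, against 800 ± 52.2 CPM with Adv-NC (SD, n = 3 each, edgeR adjusted p = 1.87e-09 and 1e-08). Zfpm2, which encodes the GATA4 partner FOG2, had 17.9 ± 3.32 CPM with Adv-ABHD11 and 14.5 ± 1.96 CPM with Adv-NC, and did not pass (SD, n = 3 each, edgeR adjusted p = 0.085).

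**Figure D5:**
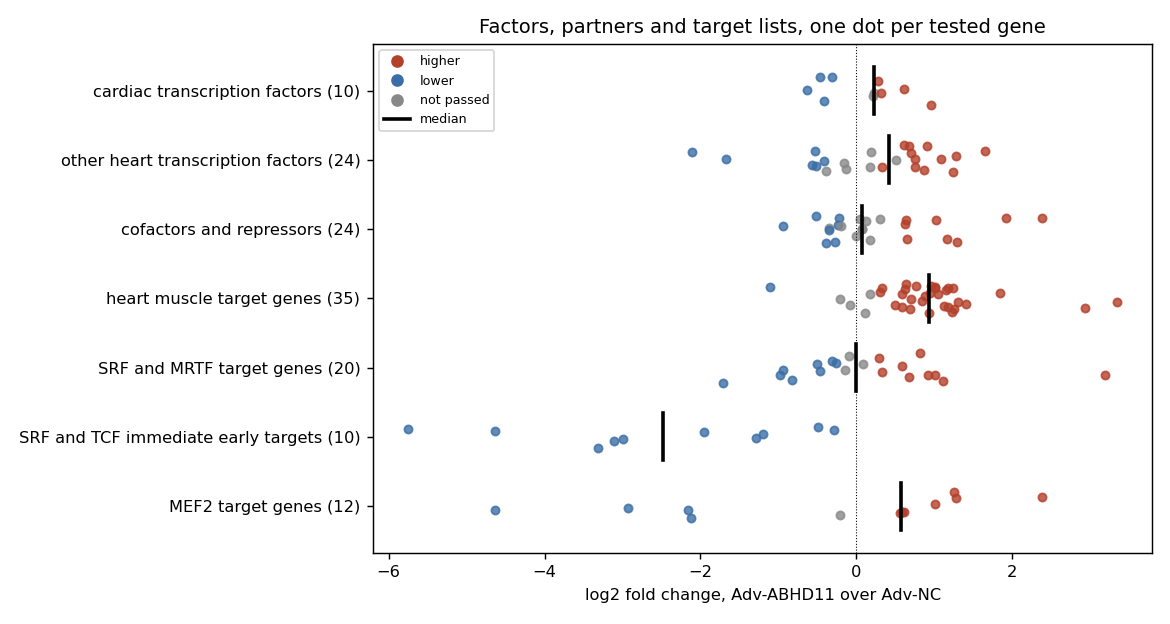
Log2 fold change of every tested gene in the factor, partner and target lists (dots, coloured by call; number tested in brackets) with the list median (bar). The immediate early targets of SRF all lie below 0, and 30 of the 35 heart muscle targets were called higher.

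Genes that these factors are known to regulate did not move as a single block. Of 35 heart muscle targets, 30 were higher, 1 was lower (the connexin Gja5, named after its value was seen) and 4 did not pass, with a median log2 fold change of 0.926. The share that passed was 88.6%, against 59.3% of all tested genes, of which 29.9% were higher. All 10 cardiomyocyte markers are also in this list, so its rise and that of the markers are not separate results. Myh7, the slow myosin heavy chain, had 144.8, 111.4 and 128.6 CPM with Adv-ABHD11 and 15.9, 18.15 and 16.3 CPM with Adv-NC. Myh6, the fast form that dominates in adult mice, averaged 8488 ± 1260 CPM with Adv-ABHD11 and 5001 ± 822 CPM with Adv-NC (SD, n = 3 each, edgeR adjusted p = 8.66e-05).

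The natriuretic peptide genes, standard readouts of GATA4, NKX2-5 and SRF, differed from each other. Nppa rose by 0.69 ± 0.107 (SE, edgeR adjusted p = 2.56e-05) on the log2 scale, to 4791 CPM with Adv-ABHD11, against 2971 CPM with Adv-NC. Nppb averaged 154.5 ± 26.5 CPM with Adv-ABHD11 and 163.2 ± 10.9 CPM with Adv-NC and did not pass (SD, n = 3 each, edgeR adjusted p = 0.545). Acta1, the slow troponin I gene Tnni1 and Myoz2, a calcineurin-binding protein of the Z-disc, also rose, by log2 fold changes of 3.34, 1.40 and 1.24 (edgeR adjusted p = 1.29e-11, 1.26e-09 and 1.97e-09).

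SRF targets were followed in a pair of lists. Of 20 targets of the myocardin and MRTF arm, 9 rose and 8 fell, the median being -0.00354. The share that passed was 85.0%, against 59.3% of all tested genes. Lmod1, a leiomodin of smooth muscle, had 36.1, 35.2 and 32.8 CPM with Adv-ABHD11 and 3.99, 3.39 and 4.00 CPM with Adv-NC. Fhl1 and Tpm1 were also higher, by 1.01 and 1.12 on the log2 scale, whereas Ccn2, a matricellular protein gene, had 373 ± 22.8 CPM with Adv-ABHD11 and 1216 ± 131 CPM with Adv-NC (SD, n = 3 each, edgeR adjusted p = 1.4e-10). Smooth muscle and pericyte markers were 7 higher and 1 lower of 10 in these libraries, and their part was not tested. Acta2, Myh11, Tagln, Cnn1 and Lmod1 are counted both as targets and as markers here.

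All 10 immediate early targets of the SRF and TCF arm were lower, against 29.5% of all tested genes. Their median log2 fold change was -2.47, from -5.75 to -0.285. Nr4a1, an orphan nuclear receptor, had 10.4, 8.18 and 9.345 CPM with Adv-ABHD11 and 220.8, 219.1 and 253.4 CPM with Adv-NC. Fos had 6.58, 7.96 and 6.59 CPM with Adv-ABHD11 and 53.7, 52.7 and 62.3 CPM with Adv-NC, Fosb stood at 0.811 ± 0.228 CPM with Adv-ABHD11 and 44.1 ± 4.09 CPM with Adv-NC, and Egr2 at 2.49 ± 0.420 CPM with Adv-ABHD11 and 21.7 ± 0.616 CPM with Adv-NC (SD, n = 3 each). These 4 log2 fold changes were below that of Srf; those of Mcl1 and Dusp1, at -0.50 and -0.28, were not.

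Of 12 MEF2 targets, 7 were higher, 4 lower and 1 did not pass, with a median log2 fold change of 0.569. The share that passed was 91.7%, against 59.3% of all tested genes, with 29.9% higher and 29.5% lower. The 4 that fell were Nr4a1, Klf2, Klf4 and Jun, which are also early response genes: Klf2 had 24.0 ± 1.67 CPM with Adv-ABHD11 and 107.6 ± 9.66 CPM with Adv-NC (SD, n = 3 each, edgeR adjusted p = 5.47e-12), and Jun and Klf4 were at log2 fold changes of -2.12 and -2.93. Those that rose included Ckm (muscle creatine kinase), Myom1 (a protein of the sarcomere's M-band) and Slc2a4 (the glucose transporter GLUT4), all named after their values were seen. Nr4a1 is also counted among the immediate early targets, Ckm and Xirp2 among the heart muscle targets, and Hdac9 among the cofactors. For these genes the lists are not separate results.

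The genes whose pattern over the 6 libraries was nearest to that of a factor were sought for the highest and the lowest of the 10, among 9990 genes with a mean above 5 CPM, by the root mean square difference of centred log2 CPM. For Mef2c the nearest were Vps13b (0.0469), Cacna2d1 (0.0486) and Jarid2 (0.0605). Each of them, like Mef2c, had its highest Adv-NC value in replicate 1 and its lowest Adv-ABHD11 value in replicate 2. For Srf the nearest were Fyn (0.0297), Acap3 (0.0445) and Pfas (0.0484), all lowest in Adv-ABHD11 replicate 2. These distances are descriptions over 6 libraries in 2 groups.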

How the data were processed

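For all 6 libraries the authors deposited expected counts by gene symbol, with no scaling for depth. Trimmomatic 0.39, HISAT2, RSEM, DESeq2 and the build mm10 are named in the submitters' processing notes, without their roles. The sources used here give no annotation, read filters or strandedness. RNA was extracted with TRIzol, per the labels' protocols. Each file held 21763 rows, and of rows that shared a symbol the one with the most counts was kept.

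Counts were rounded and compared with edgeR 4.0.16 in R 4.3.3: filterByExpr (minimum count 10, minimum total 15), TMM scaling, the quasi-likelihood F test without a replicate block, and Benjamini-Hochberg adjustment over 12790 genes, called at an adjusted p under 0.05. The SE was taken as the absolute log2 fold change over the root of F. CPM are on TMM-scaled library sizes. The procedure was also run on counts simulated from the fitted model, with few genes changed. Most tested genes passed in the real data, so that run cannot vouch for the scaling or the error rate here. Lengths, GC content and gene positions came from GENCODE M21 (GRCm38, the assembly also named mm10), which matched 21073 of 21741 symbols, and promoter sequences from RefSeq. Ratios within libraries used two-sided exact permutation tests. Replicates of a group differed by more than sampling noise. The factors and lists were chosen with earlier results of these data known. The rule for named genes took all 10 factors, the 4 genes with the smallest adjusted p per pathway list, and Myocd, Zfpm2, Nppa, Nppb, Myh6 and Myh7. One gene that the rule takes is not reported here. Markers of leukocytes (2 higher and 2 lower of 10) and red blood cells (4 higher of 4 tested) were also listed. Alternatives were DESeq2 1.42.0, other scalings and filters, a replicate block, a GC and length correction, and each library left out.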

Additional observations from a re-analysis of the deposited data

How the results depend on the processing

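Mef2c, Hand2, Gata6, Mef2d and Srf kept their direction and their call under all 14 alternatives, with log2 fold changes of 0.605 to 1.17, 0.556 to 0.802, -0.47 to -0.273, -0.545 to -0.325 and -0.695 to -0.426. The number of factors called higher ran from 2 to 6 when 1 library was left out: 2 without Adv-ABHD11 replicate 1, and 6 without Adv-ABHD11 replicate 2 or Adv-NC replicate 1; the cause was not tested. Tbx5 passed with upper-quartile scaling (adjusted p in edgeR 0.0141), with the GC and length trend removed (0.0188), and without Adv-ABHD11 replicate 2 (0.0272) or Adv-NC replicate 1 (0.0238). Mef2a passed with upper-quartile scaling (0.046) and without Adv-ABHD11 replicate 2 (0.0409) or Adv-NC replicate 1 (0.00325), and turned to -0.099 with the GC and length trend removed (0.28). Upper-quartile scaling shifted the median over all tested genes up by 0.108 on the log2 scale and, before any allowance for that shift, gave 6 factors higher and 3 lower. The GC content of the transcripts ran from 42.7% for Mef2a and Mef2c to 67.3% for Nkx2-5.

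The replicate block, in which numbers shared by the groups were treated as pairs, gave 5 factors higher and 4 lower, with Tbx5 added (adjusted p = 0.0379 in edgeR) and no other call of a factor changed. The numbers were not taken as pairs: the deviations of same-numbered libraries correlated, across genes, at 0.0175, 0.346 and -0.165. None of the 112 alternative log2 differences of the ratios moved by as much as the SD pooled over both groups. For most of them this was fixed in advance and says nothing of stability. Leaving a library out cannot move a mean of 3 that far, and the replicate block returns the main difference. Some moved by more than the SD of 1 group. Hand2 to the cardiomyocyte markers was -0.37 without Adv-NC replicate 1, against -0.27, with an SD of 0.0285 in the Adv-ABHD11 libraries. The differences near 0 changed sign when single libraries were left out: that of Mef2c to the cardiomyocyte markers was -0.035 without Adv-NC replicate 2, and that of Tbx20 to Tbx5 was -0.011 without Adv-ABHD11 replicate 3, both on the log2 scale. Of 168 alternative counts in the pathway lists, 5 moved by over 1.5 times: cofactors called lower were 4 with upper-quartile scaling and 3 without Adv-NC replicate 3, against 7, and heart muscle targets called lower were 2 in place of 1 with the replicate block, the GC and length correction or without Adv-ABHD11 replicate 1.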
